A study of Mus musculus with 2 samples.

Results

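The Slc25 genes encode the mitochondrial carrier family, and their transcripts were compared between wild-type liver and the liver of mice without adiponectin. Members were the genes whose symbol starts with Slc25a, except Slc25a1 and Slc25a20, which gave 35 of the 13326 gene symbols in the deposited tables. The mice were C57BL/6J males aged 12 weeks, fasted overnight, of genotype wild type or Adipoq-/-, the latter lacking the gene for adiponectin, a hormone released by fat cells. RNA from 9 to 10 mice of a genotype was combined into 1 library, so each genotype is represented by 1 library of liver RNA. No difference below has a replicate check, and none was tested across animals. A lower value in whole tissue cannot separate fewer cells of a type from less RNA per cell.

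The inner mitochondrial membrane is closed to most charged metabolites, and Slc25 carriers are the proteins that let selected ones across, usually by exchanging a molecule inside for another outside. Each is built from a unit repeated along the chain, and each repeat carries a short signature with a proline, an acidic residue and a basic residue. In liver the family links cytosol and matrix for ATP supply, the malate-aspartate shuttle, the urea cycle, gluconeogenesis, and the handling of cofactors, iron and glutathione.

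The signature shows what the members have in common beyond their names. It was searched in the coding sequence of each gene in the GENCODE M21 transcripts (build GRCm38) as a proline codon, any codon, an aspartate or glutamate codon, any pair of codons, and a lysine or arginine codon, in frame and on the coding strand. Capitals mark the proline, acidic and basic codons, and the number is that of the first codon counted from the start of the coding sequence. Slc25a30 is shown because it had the relative ratio farthest from 0, Slc25a14 as the other uncoupling protein-like carrier measured, and Slc25a47 as the abundant member with the highest ratio.
Slc25a30 codon 25: CCAattGATttaactAAG
Slc25a30 codon 126: CCGactGATgttttgAAA
Slc25a30 codon 220: CCAgttGATgttgtgAGA
Slc25a14 codon 60: CCTgtgGATcttactAAA
Slc25a14 codon 161: CCCactGATgttctaAAG
Slc25a14 codon 255: CCTgtgGATgtggtgAGA
Slc25a47 codon 19: CCTctgGATacagtgAAG
Slc25a47 codon 115: CCCactGAGgtggccAAA
Slc25a47 codon 239: CCCatgGATgtgatcAAG
Of the 35 members, 34 held at least 1 such match, 29 at least 2 and 22 at least 3. Among 9549 other tested genes with a coding sequence, 30.0% held at least 1 match and 2.56% at least 3. The match is a description of the letters and no measure of transport. Slc25a46, which acts at the outer membrane in mitochondrial fission, held none, and Slc25a17, Slc25a32, Slc25a34, Slc25a35 and Slc25a44 held 1 each.

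The members ranged from 0.561 to 394 FPKM in wild-type liver, and their order was almost the same in both libraries. Levels are FPKM, which are scaled to transcript length and can be compared between genes. Slc25a39, a carrier needed for mitochondrial glutathione import, was highest, at 394 FPKM in wild-type liver and 380.2 in knockout liver. Slc25a3, the phosphate carrier, followed at 314 and 328. Slc25a5, the main ADP/ATP exchanger outside heart and muscle, stood at 243 and 214, and the liver-enriched orphan carrier Slc25a47 at 227 and 268. Slc25a5 ranked above Slc25a47 in wild type and below it in the knockout library. Slc25a10, the dicarboxylate carrier (182 and 124), and Slc25a22, a glutamate carrier (131 and 105), completed the 6 members above 100 FPKM in each library.

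The 7 most abundant members were the same genes in both libraries, and they held 77.4% of the family's summed FPKM in wild-type liver and 78.8% in knockout liver. Across the 35 members the levels in the libraries had a Spearman rho of 0.99, given as a description, since both libraries share the authors' processing. The median tested member was at 14.6 FPKM in wild-type liver and 11.2 in knockout liver, beside 7.30 and 6.44 over all genes tested. Summed over the family, FPKM came to 2042 in wild-type liver and 1903 in knockout liver, which was 0.256% and 0.213% of all deposited FPKM.

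**Figure D1:**
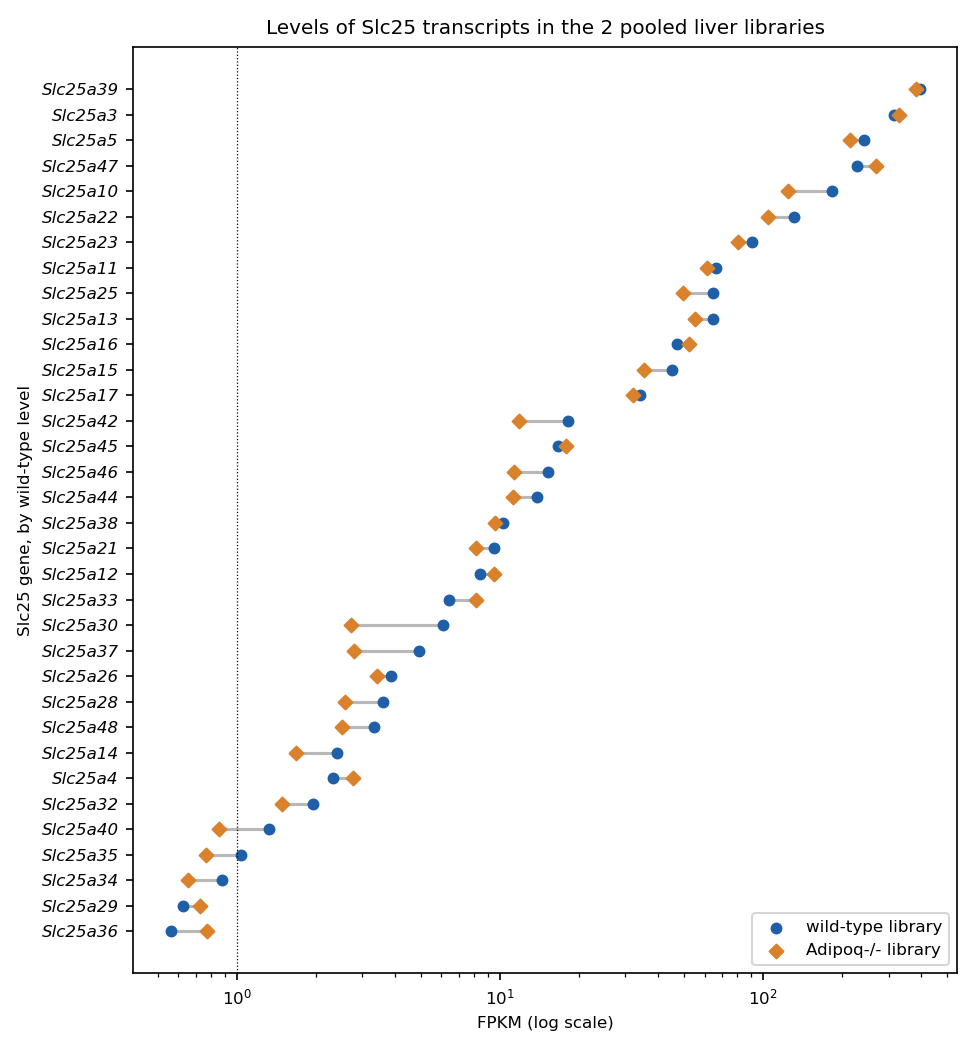
FPKM (log axis) of 34 Slc25 genes in the wild-type library (circles) and the Adipoq-/- library (diamonds), ordered by wild-type level, with a grey line joining the values of a gene and a dotted line at 1 FPKM. The order runs from Slc25a39 near 394 FPKM to Slc25a36 near 0.561, and the longest joining line belongs to Slc25a30.

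The libraries were set against each other by log2((knockout FPKM + 1) / (wild-type FPKM + 1)), a scale that understates the change of low genes. Genes were kept where either library reached 1 FPKM, and that minimum left 32 of the 35 members among 11985 genes. Slc25a35 was just inside it (1.03 FPKM in wild-type liver and 0.763 in knockout liver), and Slc25a34 just outside (0.879 and 0.653). Slc25a29, a basic amino acid carrier (0.627 and 0.723), and Slc25a36, a pyrimidine nucleotide carrier (0.561 and 0.771), also fell below it. The median ratio of all genes tested was -0.15, and relative ratios below are differences from that median.

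Most of the family lay close to the other genes. The median relative log2 ratio of the 32 members was -0.06, and the middle 50% of members lay between -0.19 and 0.08. The middle 50% of all genes tested lay between -0.18 and 0.25. By relative ratio, 19 members were below the all-gene median and 13 above it. On FPKM as deposited, 25 of 32 members (78.1%) were lower in the knockout library, against 66.9% of all genes tested.

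Only Slc25a30 was at least 1.5-fold lower relative to the all-gene median, 1 of 32 members, while 2.61% of all genes tested were. No member was at least 1.5-fold higher, while 6.73% of all genes were (2.94% after the correction for transcript length described below). No member was at least 2-fold lower on the deposited values with the pseudocount of 1 FPKM (background 0.759%) or at least 2-fold higher (background 0.459%). With numbers this small, the members' share of lower genes cannot be set apart from that of all genes.

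**Figure D2:**
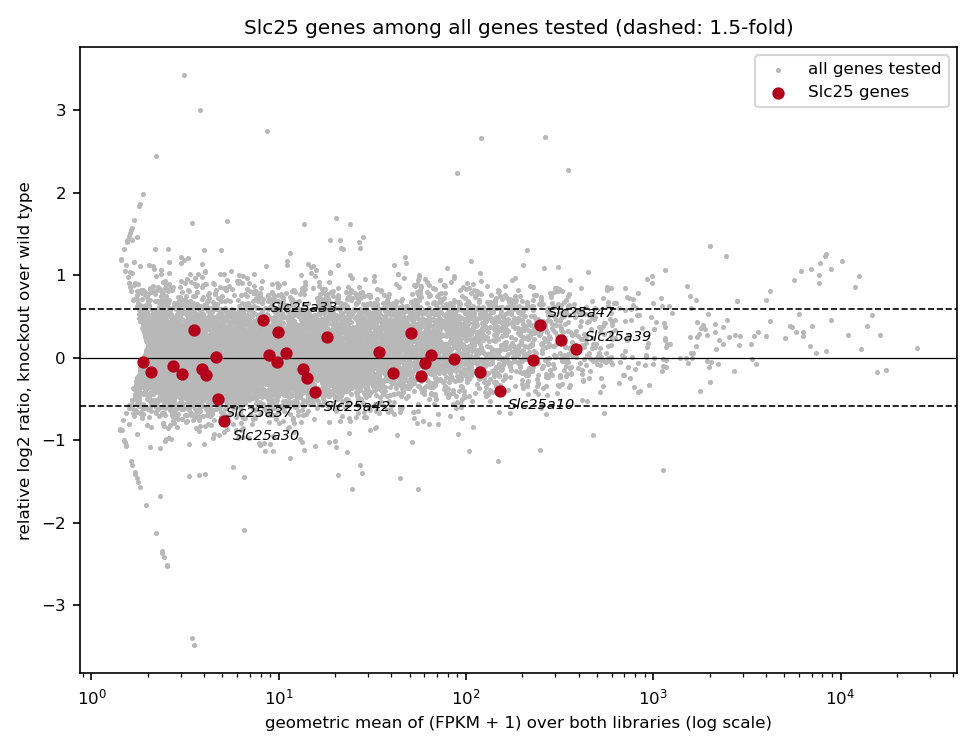
Relative log2 ratio (knockout over wild type, pseudocount of 1 FPKM) against the geometric mean of FPKM + 1 over both libraries (log axis), with 11985 genes in grey, the 32 tested Slc25 genes in red and dashed lines at 1.5-fold. Slc25a30 alone lies outside the dashed lines, and the members above 100 FPKM lie between -0.40 and 0.39.

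The uncoupling protein-like carriers held the member farthest from the rest. Slc25a30, also known as kidney mitochondrial carrier protein 1, read 6.06 FPKM in wild-type liver and 2.73 in knockout liver. Its deposited value was thus 2.22-fold lower in the knockout library, with a relative log2 ratio of -0.77, and 1.03% of genes tested had a ratio as low or lower. It is a scarce transcript in this liver, 23rd of 35 members in wild type. Among the 5039 tested genes with a mean under 5 FPKM, 3.21% were at least 1.5-fold lower. Slc25a14, the other measured carrier of this group, was 2.41 and 1.68 FPKM (-0.19). Ucp2, a family protein listed under another symbol, was 23.0 and 24.3 FPKM (0.23).

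The iron carriers were both lower on the deposited values, as were 66.9% of all genes tested, and both were under 5 FPKM in each library. Slc25a37 (mitoferrin 1), which brings iron into mitochondria mainly for heme synthesis in red cell precursors, was 4.93 FPKM in wild-type liver and 2.79 in knockout liver (relative log2 ratio -0.50). Slc25a28 (mitoferrin 2), its widely expressed counterpart, was 3.61 and 2.59 (-0.21). Their summed level was 8.54 and 5.38 FPKM. Slc25a38, a glycine carrier for the start of heme synthesis, stayed near the all-gene median at 10.3 and 9.57 (0.06).

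Red cell markers were measured beside Slc25a37. The 5 erythroid markers measured of 8 listed summed to 11823 FPKM in wild-type liver and 13493 in knockout liver, all with relative ratios above 0, led by Hbb-b1 (5126 and 5953). Alas2, the erythroid enzyme that starts heme synthesis, was lower as deposited (113 and 109). After length correction, which 3 of the 5 could be given, their median was 0.0015, so a higher level of these markers in the knockout library rests on the uncorrected values. The part of blood cells in the Slc25a37 values was not tested. Among 10 iron-sulfur and heme enzymes, 4 were below and 6 above the all-gene median and none was past 1.5-fold in either direction. Cpox, a heme synthesis enzyme, was 23.5 and 16.3 FPKM (-0.35), the iron-sulfur assembly gene Isca2 29.2 and 32.4 (0.30), and the scaffold Iscu 92.4 and 94.3 (0.18). Of the 4139 distinct 36-base words of the Slc25a37 transcript, 8.38% also occur in Gm16867, a gene model that was 2.25 and 0.961 FPKM. How reads were divided between the 2 is not given in the sources used here.

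Carriers of adenine nucleotides and phosphate set the supply of ADP and phosphate to ATP synthase and the export of ATP. The 5 measured genes of this group had a median relative log2 ratio of -0.02, and none was past 1.5-fold. Slc25a3 had a ratio of 0.21 and Slc25a5 of -0.03. Slc25a4, the ADP/ATP exchanger of heart and muscle, was scarce at 2.32 FPKM in wild-type liver and 2.77 in knockout liver (0.33). Slc25a5 therefore outweighed Slc25a4 by 104-fold in wild type and 77.2-fold in the knockout library. Of 8 skeletal muscle markers, 2 were measured, and they summed to 4.60 and 4.33 FPKM.

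The calcium-regulated ATP-Mg/phosphate carriers Slc25a23 and Slc25a25 were both well expressed. Slc25a23 was 90.5 and 80.5 FPKM (-0.02), and Slc25a25 was 64.6 and 49.5 (-0.23). Among the 16 nuclear subunits and regulators of ATP synthase listed, 14 had relative ratios above 0 (list median 0.37) and 2 were at least 1.5-fold higher, beside 6.73% of all genes tested and 18.4% of those with a mean of 100 FPKM or more, whose median was 0.26. Atp5j was 606 and 904 FPKM (0.73), Atp5j2 414 and 568 (0.61), and Atp5e 1104 and 1444 (0.54). After correction for transcript length the median of that list was 0.08, and that of these 5 carriers 0.10. Neither Atp5j (0.47) nor Atp5j2 (0.35) was then past 1.5-fold, whereas Atp5g1 moved from 0.47 to 0.59 and so just past it. Under that correction 2.94% of all genes tested were at least 1.5-fold higher.

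The Slc25a5 value carries an added uncertainty. Of its 1205 distinct 36-base words, 62.4% also occur in transcripts of 12 other genes, 11 of them annotated as pseudogenes. The deposited tables list 6 of the 12, with Gm5560 at 98.7 FPKM in wild-type liver and 88.7 in knockout liver and Gm5529 at 81.9 and 71.5. How reads were divided among these copies is not given in the sources used here. No other member shared more than 13.2% of its words with other genes, and 24 of the 35 members shared none.

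Carriers of aspartate, glutamate and dicarboxylates move reducing equivalents and carbon between matrix and cytosol. Of 6 measured members, 5 were lower in the knockout library as deposited (66.9% of all genes tested were) and 4 by relative ratio, their summed level was 462 and 363 FPKM, and none was past 1.5-fold relative to all genes. Slc25a10, which exchanges malate or succinate for phosphate, contributed the largest part of that difference, with 182 FPKM in wild type, 124 in the knockout library and a relative log2 ratio of -0.40. Slc25a11, the oxoglutarate-malate exchanger, was 66.3 and 61.1 (0.04). The Slc25a10 to Slc25a11 ratio was 2.75 in wild-type liver and 2.03 in knockout liver.

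The aspartate-glutamate exchangers lay on opposite sides of the all-gene median by small amounts, and both lay above it after length correction (Slc25a13 at 0.04 and Slc25a12 at 0.43). Slc25a13 (citrin), the liver form that supplies aspartate to the urea cycle, was 64.5 FPKM in wild-type liver and 55.3 in knockout liver (-0.07). Slc25a12 (aralar), the form of brain and muscle, was 8.41 and 9.48 (0.31). Citrin exceeded aralar by 7.66-fold in wild type and by 5.83-fold in the knockout library. Slc25a22 stood at -0.17, and Slc25a21, the oxoadipate carrier of lysine and tryptophan breakdown, was 9.53 and 8.12 FPKM (-0.05).

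The enzymes of the malate-aspartate and glycerol phosphate shuttles were lower as deposited in 6 of 6 cases, beside 66.9% of all genes tested. Relative to the all-gene median 4 were below and 2 above, and none was past 1.5-fold. Gpd1, the cytosolic glycerol phosphate dehydrogenase, was 168 FPKM in wild-type liver and 105 in knockout liver (-0.53). Its mitochondrial partner Gpd2 was 7.80 and 5.26 (-0.34), and the cytosolic malate dehydrogenase Mdh1 was 528 and 484 (0.02).

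Amino acid and glutathione carriers differed little. All 5 tested members were lower in the knockout library as deposited, as were 66.9% of all genes tested. By relative ratio 3 were below 0 and 2 above, and their relative log2 ratios lay between -0.19 and 0.10. Slc25a15, which exchanges ornithine for citrulline in the urea cycle, was 44.9 FPKM in wild-type liver and 35.4 in knockout liver (-0.19). The 6 urea cycle enzymes lay between -0.12 and 0.17, with Arg1 at 924 and 938 FPKM (0.17) and Asl at 323 and 266 (-0.12). Slc25a44, a branched-chain amino acid carrier, was 13.9 and 11.2 (-0.14). Slc25a39 had a ratio of 0.10, whereas its paralog Slc25a40 was close to the minimum at 1.32 and 0.859 FPKM (-0.17).

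Coenzyme and nucleotide carriers were the most spread of the larger groups. Slc25a42, which brings coenzyme A into mitochondria in exchange for adenine nucleotides, was 18.1 FPKM in wild-type liver and 11.8 in knockout liver (-0.42). Slc25a16, another carrier linked to coenzyme A, was 47.1 and 52.2 (0.30). Slc25a33, a pyrimidine nucleotide carrier, had the highest relative ratio of the 32 tested members, at 6.38 and 8.11 FPKM (0.45). In GENCODE M21 its exons are overlapped on the opposite strand by Gm13068 (281 bases), which was 0.760 and 1.70 FPKM. No member of this group was past 1.5-fold.

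Others in that group were near the all-gene median. The peroxisomal carrier Slc25a17 was 34.2 and 32.2 FPKM (0.07). Slc25a26, which imports S-adenosylmethionine, was 3.85 and 3.41 (0.01), and Slc25a32, a folate and flavin carrier, was 1.96 and 1.48 (-0.10). The listed enzymes of cofactor metabolism were lower as deposited in 10 of 10 cases, beside 66.9% of all genes tested. Relative to all genes 8 were below the median and 2 above (list median -0.19), with none past 1.5-fold. They included Pank1, which starts coenzyme A synthesis (65.8 and 48.4 FPKM, -0.28), Coasy, which completes it (71.1 and 52.8, -0.27), and the methionine adenosyltransferase Mat1a (520 and 396, -0.24).

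The remaining carriers have roles that are less settled. Slc25a47 was higher in the knockout library by deposited value and by relative ratio (0.39). Slc25a45 was 16.6 FPKM in wild-type liver and 17.8 in knockout liver (0.25), Slc25a46 was 15.2 and 11.3 (-0.25), and Slc25a48 was 3.32 and 2.52 (-0.14). Slc25a35 had a ratio of -0.06. An exon of Slc25a35 overlaps one of Rangrf on the opposite strand by 545 bases in GENCODE M21, and whether counting used strand is not given in the sources used here. Exons of 12 members are overlapped by another gene in that annotation, and for 5 of them the other gene is listed in the tables.

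**Figure D3:**
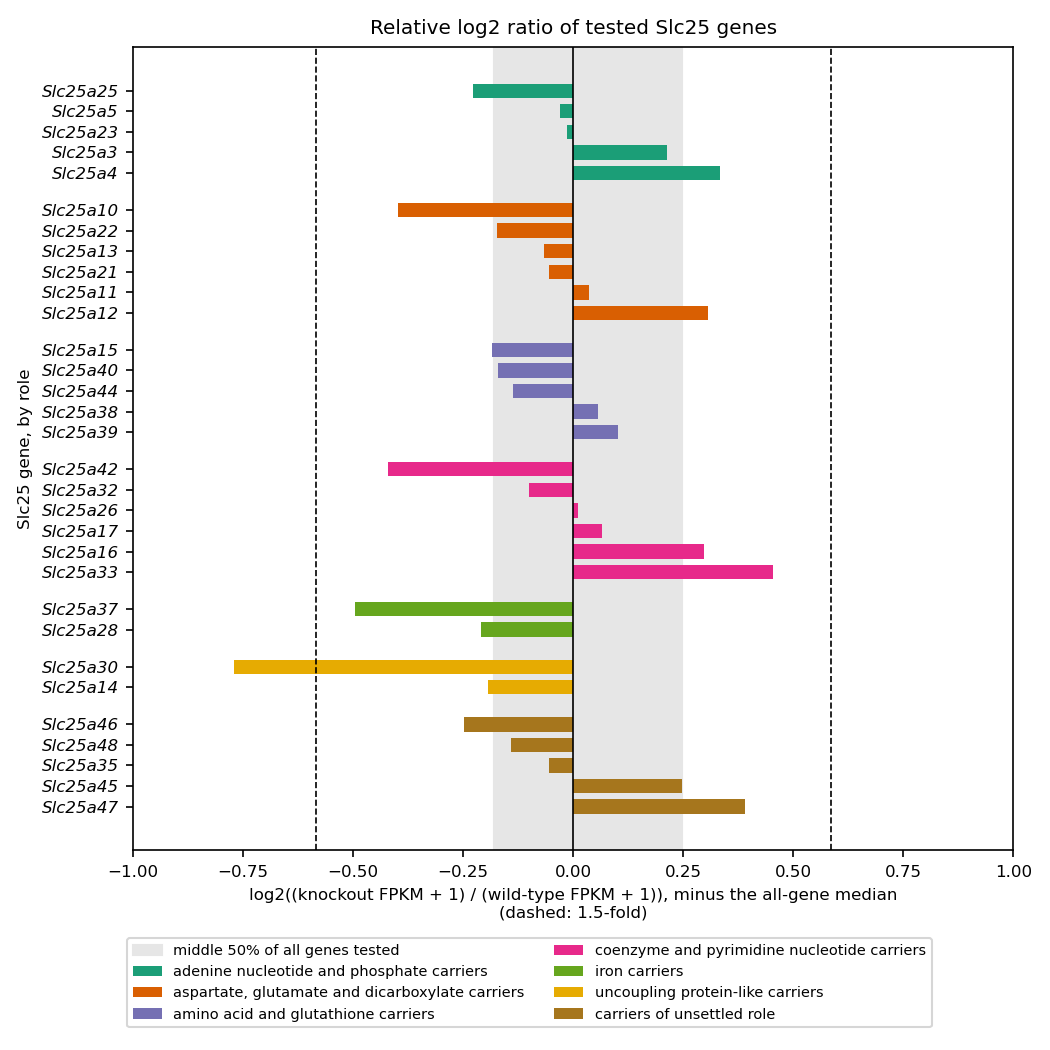
Relative log2 ratio (knockout over wild type) of 31 tested Slc25 genes, 1 bar per gene, coloured and grouped by role. The grey band is the middle 50% of all genes tested (-0.18 to 0.25), and of the bars only that of Slc25a30 (-0.77) crosses a dashed 1.5-fold line.

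The genes that import proteins made in the cytosol, newly made carriers among them, mostly had ratios above 0. Of 20 measured genes of the import machinery, 16 lay above the all-gene median (list median 0.42) and 2 were at least 1.5-fold higher, beside 6.73% of all genes tested. The list holds 5 genes of the presequence translocase (Timm23, Timm17a, Timm17b, Timm44 and Timm50), which is not the path of the carriers. Of these 5, 4 lay above the all-gene median (their own median 0.24, or 0.35 after length correction). Of the other 15, a split made after the values were seen, 12 lay above it (median 0.44, or 0.18 after length correction). Timm8b, a small chaperone of the space between the membranes, was 109 FPKM in wild-type liver and 156 in knockout liver (0.67, or 0.26 after length correction). Tomm40l, a relative of the import pore, was 10.5 and 20.6 (1.06, or 1.18 after length correction). Its exons overlap those of the nuclear receptor gene Nr1i3 on the opposite strand by up to 2118 bases, and Nr1i3 was 43.2 and 26.1 FPKM. After length correction the median of the import list was 0.21. The genes of the list at least 1.5-fold higher were then Tomm40l, Timm22 (0.61) and Timm17b (0.61), beside 2.94% of all genes tested. The difference between this list and the carriers was not tested.

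The 14 measured solute transporters of the inner membrane outside the family had a median of -0.08 and none past 1.5-fold. Brp44, a subunit of the mitochondrial pyruvate carrier, was 219 and 200.9 FPKM (0.02), Sfxn1, a serine transporter, 20.3 and 13.8 (-0.37), and Letm1, an ion exchanger, 13.2 and 9.34 (-0.31). In the outer membrane the channel gene Vdac1 was 88.8 and 72.9 (-0.13) and the cholesterol-binding Tspo 89.5 and 108 (0.42). Among the 142 other tested genes with an Slc symbol the median was -0.09, with 6 at least 1.5-fold lower (4.23%, beside 2.61% of all genes tested) and none higher (beside 6.73%). Mtch2, a family protein of the outer membrane, was 217 and 244 FPKM (0.32).

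**Figure D4:**
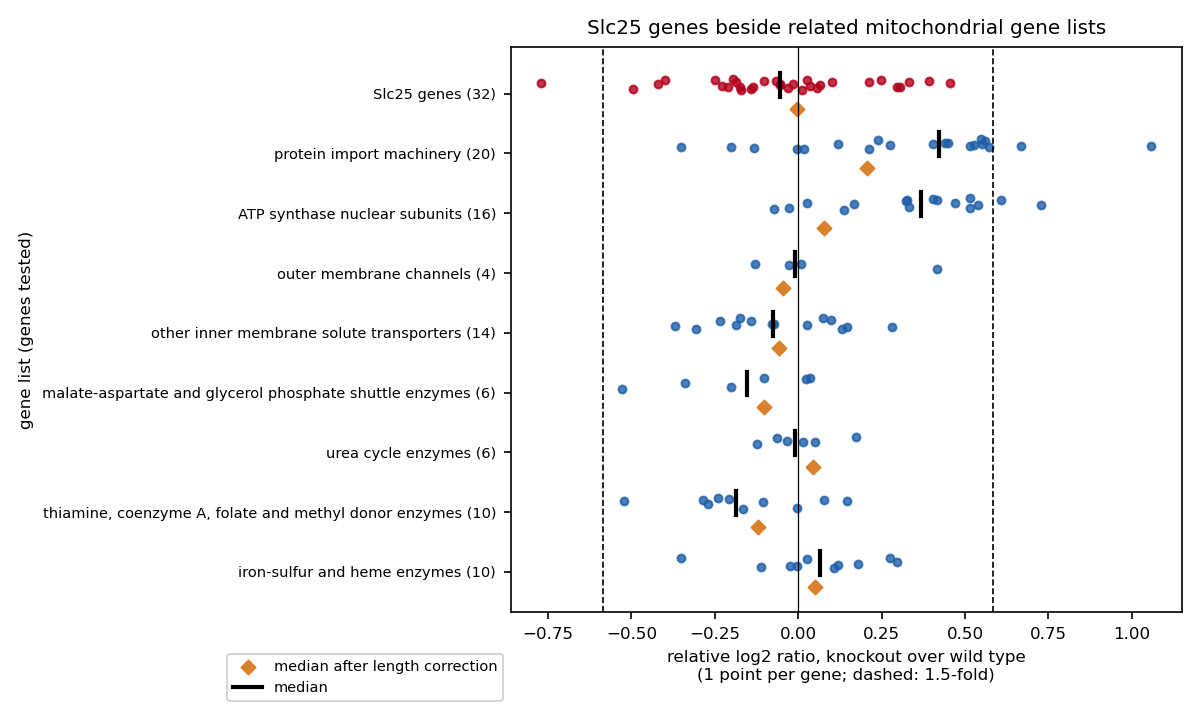
Relative log2 ratio (knockout over wild type) of each tested gene in the Slc25 family (red) and in 8 related lists (blue), with the number of genes in brackets, a black bar at each median, an orange diamond at the median after length correction, and dashed lines at 1.5-fold. The import machinery (0.42) and ATP synthase (0.37) have the highest medians, and both diamonds lie nearer to 0, at 0.21 and 0.08.

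Ratios moved with transcript length in the family as in all genes. Across 11571 genes with a length, Spearman's rho between length and log2 ratio was -0.44, and across the 32 members it was -0.39. These are descriptions across genes of the same pair of libraries. Of the 10 members with the longest transcripts (3294 to 6351 bases), 9 were below the all-gene median, and of the 11 with the shortest (1240 to 1828 bases), 5 were. Corrected for length, the family median was -0.004, and Slc25a30 was again the only member past 1.5-fold (-0.68). Under that correction 2.79% of all genes were at least 1.5-fold lower and 2.94% at least 1.5-fold higher.

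Another scaling shifts all members together, and so decides on which side of 0 many of them lie. Scaled to equal sums of FPKM, Slc25a10 (-0.71), Slc25a42 (-0.72) and Slc25a37 (-0.76) joined Slc25a30 (-1.04) past 1.5-fold lower, while 12.6% of all genes tested were past it too. Slc25a33 and Slc25a47 lay above 0 under each setting, from 0.16 to 0.52 and from 0.08 to 0.42. Slc25a4 and Slc25a12 did so too wherever they were tested, from 0.07 to 0.42 and from 0.01 to 0.43.

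**Figure D5:**
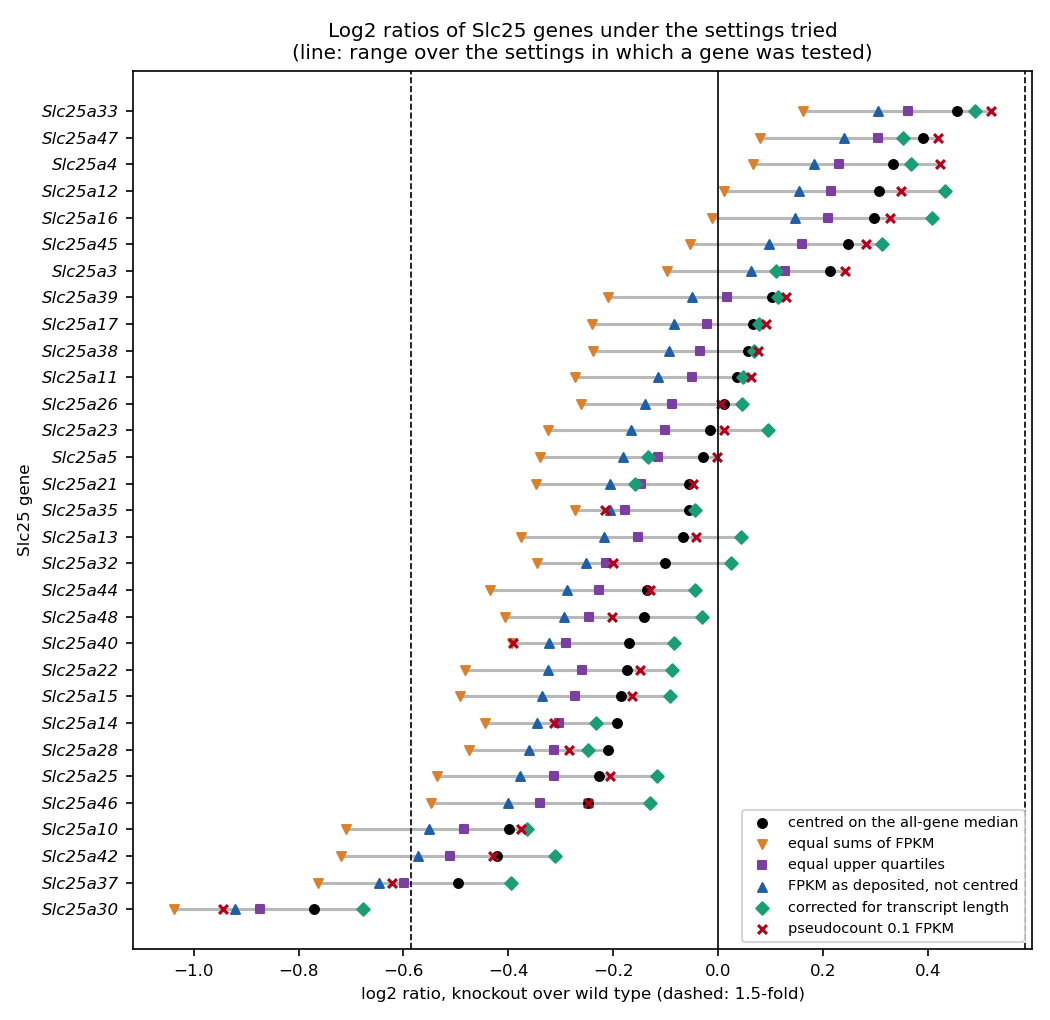
Log2 ratio (knockout over wild type) of 31 tested Slc25 genes under 6 of the settings tried (symbols), with a grey line from the lowest to the highest value over the settings in which a gene was tested and dashed lines at 1.5-fold. Slc25a30 lies beyond the lower dashed line under each setting, from -1.04 to -0.68.

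The tissue label was checked on its defining markers. The 8 hepatocyte markers were all measured, from Hnf4a (91.0 and 71.9 FPKM) to Alb (17522 and 14031), and their relative log2 ratios lay between -0.20 and 0.27. Of 8 adipocyte markers 3 were measured, and they summed to 23.9 FPKM in wild-type liver and 13.1 in knockout liver, with Cfd at 13.3 and 2.01 and Fabp4 at 9.61 and 11.0. The fall of that sum is carried by Cfd. Cidea, close to the minimum, was lower too (1.03 and 0.146 FPKM, -0.67). Of the 3, 2 were at least 1.5-fold lower, beside 2.61% of all genes tested. The 8 Kupffer cell and macrophage markers summed to 192 and 236 FPKM, a difference carried by Lyz2 (72.5 and 116), while 4 of the 8 were lower as deposited. By relative ratio 6 of them were above the all-gene median and 2 below it. Lyz2 (0.82) and Marco (1.26 and 3.72 FPKM, 1.21) were at least 1.5-fold higher, 2 of 8 beside 6.73% of all genes tested. The 8 sinusoidal endothelial markers summed to 69.8 and 73.0, and the 7 stellate cell markers measured to 76.6 and 78.1. The 4 cholangiocyte markers summed to 20.5 and 27.5, and the 3 lymphocyte markers to 3.79 and 4.59. The cholangiocyte difference was carried by Spp1 (13.4 and 21.0 FPKM), and 2 of the 4 were lower as deposited. The lymphocyte difference was carried by Cd4 (1.08 and 2.36 FPKM), while Cd79a and Cd79b were lower as deposited. The part of other cells in the values of the carriers was not tested. The deleted gene was not analysed here, and it gives no check of the labels.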

How the data were processed

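Per the labels' protocols, liver RNA of 9 to 10 mice per genotype was pooled into 1 library. The deposited values are FPKM by gene symbol. The submitters' processing notes name TopHat, Cuffdiff and the builds mm9 and NCBIM37, without settings or annotation. Read counts were not used. Among 1303 rows under 1 FPKM in both libraries, at most 5 shared a log2 ratio to 3 decimals, so whole reads were not recovered and the depth is unknown.

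Of the 26 symbols with 2 rows each, none an Slc25 symbol, the more abundant row was used. Log2 ratios used a pseudocount of 1 FPKM and a minimum of 1 FPKM in at least 1 library, minus the all-gene median. With 1 library per genotype there was no test. Lengths and sequences came from GENCODE M21 (GRCm38), using the transcript with the longest coding part, and 96.5% of tested genes had a length. Length correction instead subtracted the median of the gene's own length bin, out of 20 bins. The calculation was tested on simulated data. Protein sequences were not used here.

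The members and gene lists were chosen with earlier results of these data known, and the genotype of a library was taken from its label. All members were counted and named, except 1 that is not reported here by itself, and in each related list the 2 genes farthest from the all-gene median with at least 5 FPKM and the most abundant gene; cell type lists are given mainly as sums. Other Slc genes, level classes, the Slc25a5 and Slc25a37 copies, and the overlap of Tomm40l with Nr1i3 were examined after values were seen. Hnf4a, Atp5g1, Timm22 and the length-corrected value of Timm17b were singled out then. Alternatives were a pseudocount of 0.1 or 0.5 FPKM, a minimum of 5 FPKM or none, summed rows, other scalings and length correction. Python 3.11.15, pandas 2.3.3, numpy 2.4.6 and scipy 1.17.1 were used.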

Additional observations from a re-analysis of the deposited data

How the results depend on the processing

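Slc25a30 was at least 1.5-fold lower under each of the 9 alternatives, with log2 ratios from -1.04 to -0.68, and no member was at least 1.5-fold higher under any. With a pseudocount of 0.1 FPKM, the count of members at least 1.5-fold lower rose from 1 to 2, beside 5.9% of all genes tested. It was also 2 with equal upper quartiles (4.6% of all genes) and with FPKM as deposited (6.17%), each time with Slc25a37 in addition. With equal sums of FPKM it was 4 (also Slc25a10 and Slc25a42), when 12.6% of all genes tested were. At least 2-fold lower as deposited was 1 member (Slc25a30) with pseudocounts of 0.1 and 0.5 FPKM, against 0. The share of all genes at that fold is not given here for these pseudocounts. The family median was -0.34 with equal sums and -0.21 as deposited, and the log2 ratio of the family's summed FPKM was 0.05 relative to all genes, -0.26 with equal sums and -0.10 as deposited. These shifts follow from the scaling, which moved the median of all genes to -0.28 and -0.15. In 7 settings ratios were centred, on the all-gene median or, under length correction, on the median of the gene's own length bin. Over these, 16 members lay below that median and 11 above it wherever they were tested. The side of the other 5 depended on the setting. The remaining 3 settings move all genes down together, so signs under them were not counted. Length correction was not applied to the summed FPKM. No paired analysis was possible because each genotype has 1 library. Pooling removes the spread between animals, and the unknown depth limits the members under 5 FPKM most.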
